A study of Homo sapiens with 28 samples.

Results

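The genes described here are Stat5a and Stat5b, which encode the transcription factor STAT5, and 6 genes that respond to it: Socs1, Socs2, Socs3, Cish, Pim1 and Bcl2l1. They are 8 of the 21887 protein-coding genes of the mouse table used, and were listed by name as STAT5 genes and STAT5 response genes downstream of the mutant receptor FLT3-ITD. For each gene, the length of DNA under peaks of H3K27ac and of H3K27me3 was measured in every mouse, over the gene interval plus 5 kb on either side (the window).

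Cytokine receptors of blood cells activate JAK kinases, which phosphorylate STAT5. STAT5 then binds DNA and switches on survival genes together with CISH and SOCS proteins, which bind the receptor or the JAK and damp the signal. FLT3 is a receptor tyrosine kinase of blood progenitors, and its internal tandem duplication (ITD) makes it active without ligand, with STAT5 as one of its best known outputs. H3K27ac is an acetyl mark of active promoters and enhancers, whereas H3K27me3 is laid on the same lysine by EZH2, the catalytic subunit of Polycomb repressive complex 2, at silenced genes.

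The data were chromatin immunoprecipitation sequencing (ChIP-seq) peak lists for both marks from 5 DKOITD mice (DKOITD48, DKOITD52, DKOITD53e, DKOITD83 and DKOITD185) and 3 WT mice (WT1, WT2 and WT3), all C57BL/6 and with no age given in the labels. DKOITD mice were Ezh2(fl/fl) and Runx1(fl/fl) with Rag1(Cre/+) and Flt3(ITD/+), so Cre was driven by Rag1, a gene of early lymphoid cells, and their whole bone marrow was used. WT mice were Ezh2(fl/fl) and Runx1(fl/fl) with Rag1(+/+) and Flt3(+/+): they carried the same floxed alleles without Cre, and their marrow was first enriched on CD117 beads for cells that express Kit. The series title places the study in leukaemia that starts from early thymic progenitors with Ezh2 and Runx1 mutations. Genotype, cell preparation and the input library used as control changed together and cannot be told apart in any comparison below. In bulk marrow, a change in the share of cells with a mark and a change in its extent per cell cannot be told apart either.

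Libraries of 1 genotype differed in how much was called. H3K27ac peaks covered 7.03 to 23.8 Mb in DKOITD mice and 16.8 to 29.7 Mb in WT mice, from 9435546 to 11458360 fragments per DKOITD library and 6515614 to 7072997 per WT library. H3K27me3 peaks covered 3.17 to 40.5 Mb in DKOITD mice and 13.9 to 27.3 Mb in WT mice, from 3343831 to 6411696 fragments per DKOITD library and 2766339 to 3994483 per WT library. DKOITD53e and DKOITD83 had the shortest H3K27ac territory, and with DKOITD48 they had the shortest H3K27me3 territory, at most 5.24 Mb each. Over the 11980 genes tested for H3K27ac, the median difference, DKOITD minus WT, was -0.36 on the log2(kb + 0.5) scale. It was 0.15 after scaling each library to its territory and 0.00 without those 3 mice. Over the 5758 genes tested for H3K27me3 the median was -0.83, and it was -0.65 after scaling and 0.45 without the 3 mice. The groups also differed in cell type markers, counted out of 10 per list. H3K27ac summed over the stem and progenitor markers came to 1.01 to 4.62 kb in DKOITD mice and 9.56 to 22.1 kb in WT mice. Kit was at 0 in 4 of 5 DKOITD mice and covered in 3 of 3 WT mice. Cd34 and Mycn of that list went the other way, each with a peak in 1 DKOITD mouse. Their means were 0.124 and 0.146 kb in DKOITD mice, against 0.074 and 0 kb in WT mice. The granulocyte sum was 0 to 7.95 kb in DKOITD mice and 24.6 to 47.7 kb in WT mice, with Camp and S100a8 at 0 in all 5 DKOITD mice. The monocyte and dendritic sum was 18.4 to 56.6 kb in DKOITD mice and 5.4 to 15.9 kb in WT mice, where H2-Aa was at 0 in all 3. Ly6c2 of that list went the other way, with a mean of 0.58 kb in DKOITD mice and 2.30 kb in WT mice. The erythroid sum was 1.58 to 4.64 kb in DKOITD mice and 5.20 to 11.6 kb in WT mice. The B cell sum was 1.16 to 9.56 kb in DKOITD mice and 6.78 to 24.9 kb in WT mice. Cd22 and Ms4a1 of that list went the other way, each with a peak in 1 DKOITD mouse and 0 WT mice. The T cell sum was 1.36 to 2.80 kb in DKOITD mice and 3.26 to 5.93 kb in WT mice. It came from Cd3d, Cd3g and Lck, apart from a Cd4 peak of 0.66 kb in DKOITD48. The other T cell markers were at 0 in every mouse. The mast cell and basophil sum was 0 to 1.92 kb in DKOITD mice and 5.31 to 12.6 kb in WT mice. Most of it in WT mice came from Hdc and Kit, the only markers of that list tested. WT marrow had been enriched for Kit. Cpa3, Ms4a2, Fcer1a, Mcpt8, Tpsb2 and Cma1 were at 0 in every mouse. By limma's adjusted test, 4 of 7 stem and progenitor, 5 of 9 granulocyte, 1 of 4 erythroid, 2 of 7 B cell and 2 of 2 mast cell and basophil markers tested were lower in DKOITD mice, 3 of 9 monocyte and dendritic markers were higher, and 0 of 3 T cell markers were called. The 3 monocyte and dendritic markers called were H2-Aa, H2-Ab1 and Cd74. Kit and Gata2 count in both the stem and the mast cell list. Flt3 counts both in the monocyte and dendritic list and among the partners of FLT3-ITD described below. The part of these cell types in the results below was not tested.

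All 8 genes carried H3K27ac in at least 1 mouse, and Stat5b, Socs1, Pim1 and Bcl2l1 carried it in all 8 mice. Over all coding genes, 61.8% had the mark in at least 1 mouse and 37.1% in all 8. H3K27me3 was found at 5 of the 8 genes, and Socs2 was the one that had it in every mouse, against 39.4% of all genes with it in at least 1 mouse and 6.0% in all 8. Stat5a, Stat5b and Cish had no H3K27me3 peak in any library. The H3K27ac difference was largest on the log2 scale at Socs2 and Socs3, both higher in DKOITD mice, and at Bcl2l1, lower in DKOITD mice. None of the 3 passed limma's test after Benjamini-Hochberg adjustment over all genes. That test called 0 of the 8 genes for H3K27ac, against 4.52% of the 11980 genes tested (0.676% higher in DKOITD mice and 3.84% lower). At an unadjusted limma p under 0.05 it named Socs3 and Bcl2l1, where the background was 2.7% of genes higher and 19.2% lower. For H3K27me3 it tested 3 of the 8 genes and called 0, against 0.0% of 5758 genes, and at an unadjusted p under 0.05 it named none of the 3, where the background was 0.208% of genes higher and 7.05% lower. The exact permutation test over mice, two-sided and with a smallest possible p of 0.0357 for 5 against 3 mice, was run on 13 gene and mark pairs with any value above 0, and 1 of them, Socs3 H3K27ac, reached that p. Its p-values are unadjusted, and 1 value of that size among 13 does not pass a Benjamini-Hochberg adjustment at 0.05.

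**Figure D1:**
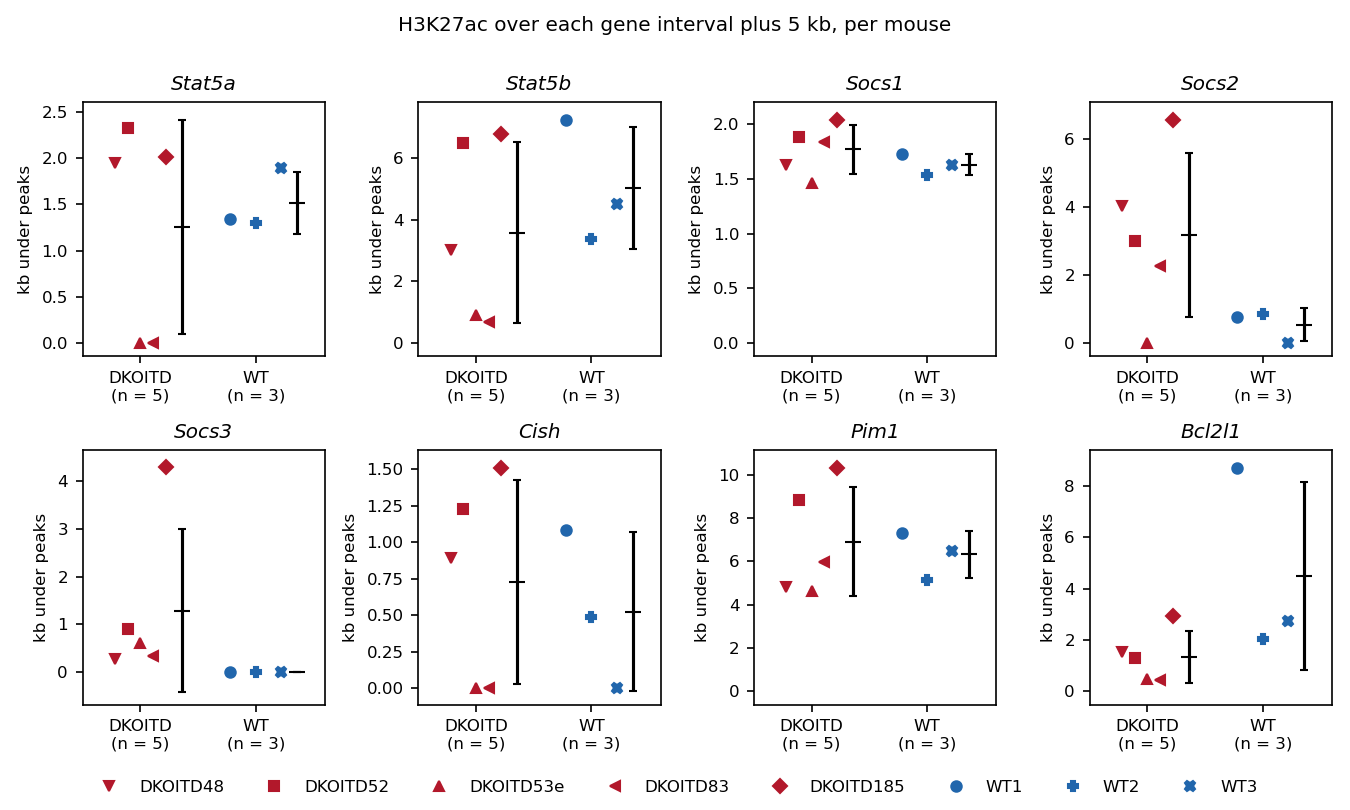
Length under H3K27ac peaks (kb, vertical axes with their own scale for each gene) over the window of each of the 8 genes, with 1 symbol per mouse; the black tick and bar are the mean and SD of 5 DKOITD mice and of 3 WT mice. At Socs3 the DKOITD mice lie between 0.275 and 4.30 kb and the WT mice at 0 kb, and at each of the other genes the groups overlap.

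Below, DKOITD values are given in the order DKOITD48, DKOITD52, DKOITD53e, DKOITD83 and DKOITD185, and WT values in the order WT1, WT2 and WT3. Gene positions are those of the mm10 assembly, and positions of peaks are in kb from the gene end with the lower coordinate, because the gene table gives no strand. Peak coverage per window is also given as a percent of its length. This does not remove the part of gene length, since a peak of a given length fills more of a short window. The windows ran from 11.7 kb (Socs1) to 88.3 kb (Stat5b).

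Stat5a (gene ID 20850) and Stat5b (20851) are neighbours on chromosome 11, at 100859351 to 100885169 and 100780731 to 100859004. They encode closely related STAT5 proteins, and their windows share a peak site, so they are not independent of each other. The Stat5a window also reaches Stat3. Stat5a had 1.95, 2.33, 0, 0 and 2.01 kb of H3K27ac in DKOITD mice, against 1.35, 1.30 and 1.90 kb in WT mice. No peak was called in DKOITD53e and DKOITD83, the other 3 DKOITD mice were above every WT mouse, and the groups overlapped. The mean was 1.26 ± 1.16 kb in DKOITD mice and 1.52 ± 0.33 kb in WT mice (SD, n = 5 and 3; exact permutation p = 0.714), and the log2 difference was -0.57 ± 0.66 (SE; limma adjusted p = 0.590). Stat5b had 3.005, 6.48, 0.916, 0.695 and 6.77 kb in DKOITD mice, against 7.23, 3.36 and 4.49 kb in WT mice. Again DKOITD53e and DKOITD83 were lowest and the groups overlapped. The mean was 3.57 ± 2.93 kb in DKOITD mice and 5.03 ± 1.99 kb in WT mice (SD, n = 5 and 3; exact permutation p = 0.393), with a log2 difference of -0.76 ± 0.66 (SE; limma adjusted p = 0.478). Without DKOITD48, DKOITD53e and DKOITD83, both log2 differences turned positive, at 0.42 for Stat5a and 0.43 for Stat5b.

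The peaks over Stat5a and Stat5b lay at a few recurring sites, a site being overlapping peaks of the mice merged. The shared site between the genes ran from -0.887 to 2.07 kb of Stat5a. It covered 1.41, 2.33, 0, 0 and 1.76 kb in DKOITD mice, against 1.35, 1.30 and 1.16 kb in WT mice. Inside Stat5b, the site at 67.2 to 70.4 kb was covered in all 8 mice, with 0.916, 2.57, 0.916, 0.695 and 1.14 kb in DKOITD mice, against 1.80, 1.07 and 1.79 kb in WT mice. It held the strongest peak of the window by q in every library, with a fold enrichment, which is the authors' own value for each peak, of 4.94 to 10.0 in DKOITD mice and 10.9 to 12.5 in WT mice. The site at 40.9 to 44.5 kb was covered in 3 of 5 DKOITD mice and 3 of 3 WT mice. The site at 60.0 to 60.7 kb was empty in all 5 DKOITD mice and covered 0.677, 0.314 and 0.304 kb in WT mice (exact permutation p = 0.0357). It was the only site of the 34 at these genes whose H3K27ac was lower in DKOITD mice without overlap, against 9.43% of the 32836 merged H3K27ac regions of the genome.

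**Figure D2:**
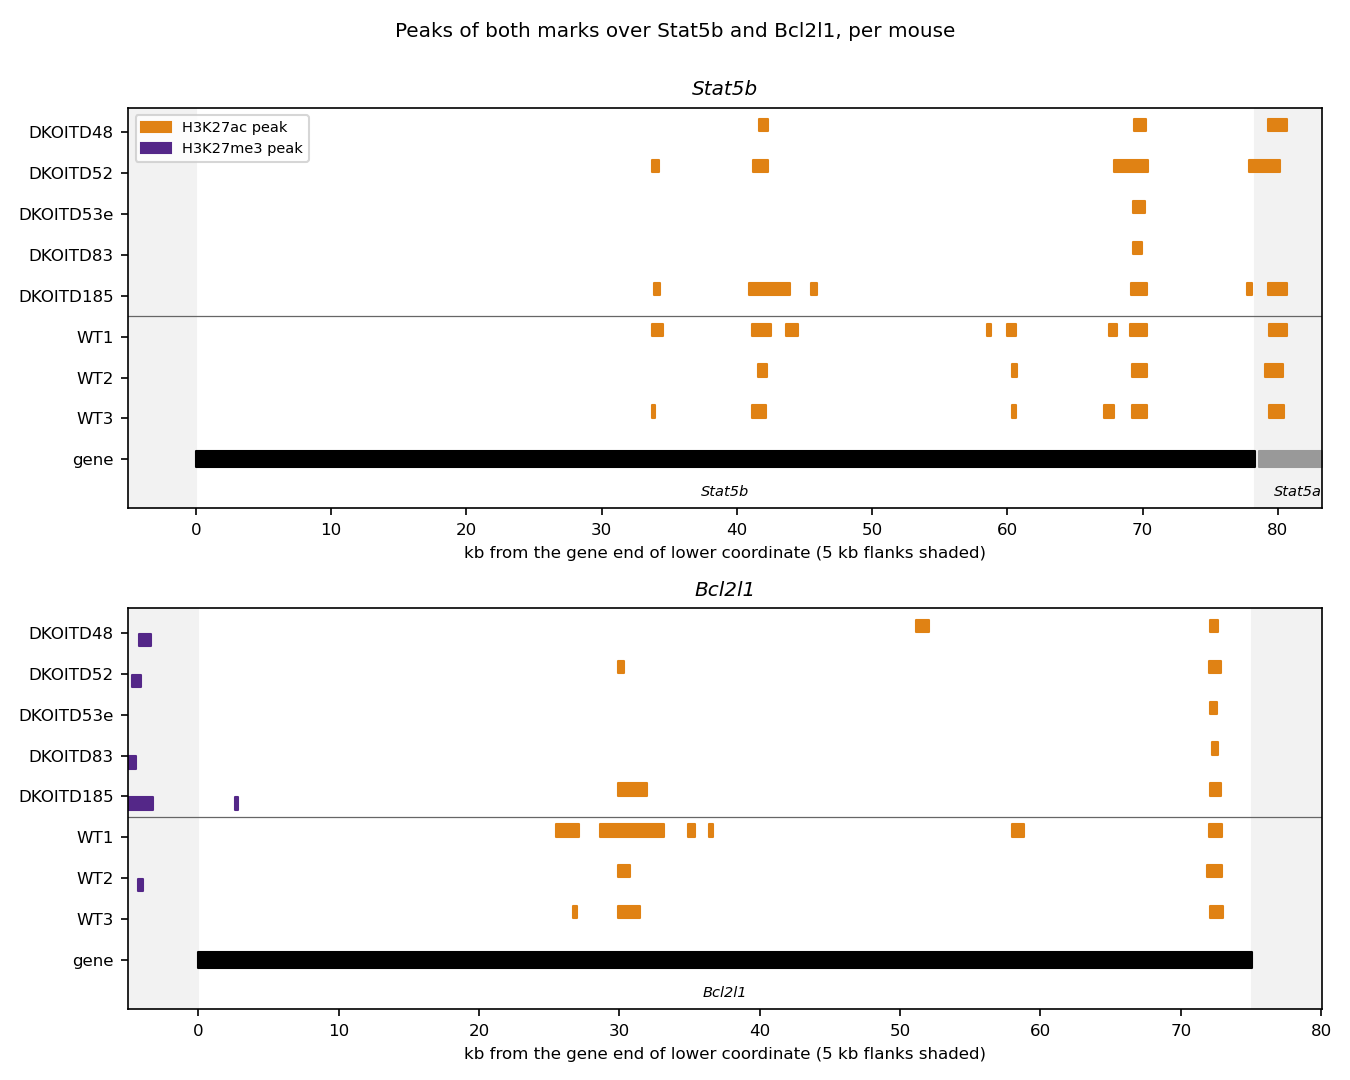
Peaks of H3K27ac (orange) and H3K27me3 (purple) over the windows of Stat5b and Bcl2l1, 1 line per mouse with DKOITD mice above WT mice; the horizontal axis is the distance in kb from the gene end of lower coordinate, black bars are the genes and the grey bar is Stat5a. The sites at 67.2 to 70.4 kb of Stat5b and at 71.8 to 73.0 kb of Bcl2l1 are filled in all 8 mice, and the one at 60.0 to 60.7 kb of Stat5b in the WT mice alone.

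Among the feedback inhibitors, Socs1 (12703; chromosome 16, 10783808 to 10785536), whose product inhibits JAK kinases directly, carried H3K27ac in every mouse. Its window, which also reaches Tnp2 and Prm3, had 1.63, 1.88, 1.46, 1.84 and 2.04 kb in DKOITD mice, against 1.73, 1.53 and 1.62 kb in WT mice. The values lay close together, and the groups overlapped. The mean was 1.77 ± 0.23 kb in DKOITD mice and 1.63 ± 0.10 kb in WT mice (SD, n = 5 and 3; exact permutation p = 0.357), and the log2 difference was 0.09 ± 0.17 (SE; limma adjusted p = 0.759). The whole of it was 1 site from 0.511 to 2.67 kb, which begins inside the gene and runs past its upper end. DKOITD53e and DKOITD83, which had no H3K27ac peak at Stat5a, had this peak at 1.46 and 1.84 kb. Its rank by q was low in DKOITD83, above 13.0% of the peaks of its list. When peaks were limited to a −log10 q of at least 5, the log2 difference was -0.49. H3K27me3 covered 0 kb of Socs1 in all 5 DKOITD mice, against 0.564, 0 and 0.411 kb in WT mice (exact permutation p = 0.214). The gene was covered in too few mice for limma. The H3K27me3 peaks of WT1 and WT3 lay at 0.014 to 0.805 kb, partly within the span of the acetylated site. No base of Socs1 lay under peaks of both marks in any mouse.

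Socs2 (216233; chromosome 10, 95383903 to 95417321), a feedback inhibitor best known for limiting growth hormone signalling and a recognised STAT5 target, had 4.04, 3.01, 0, 2.27 and 6.56 kb of H3K27ac in DKOITD mice, against 0.770, 0.859 and 0 kb in WT mice. The DKOITD mice other than DKOITD53e were above every WT mouse, and DKOITD53e with no peak made the groups overlap. The mean was 3.17 ± 2.40 kb in DKOITD mice and 0.543 ± 0.472 kb in WT mice (SD, n = 5 and 3; exact permutation p = 0.143). On the log2 scale the difference was 1.53 ± 0.78 (SE; limma adjusted p = 0.280), or 1.88 above the median of all genes, and larger than that of 99.2% of the genes tested. Without DKOITD53e it was 2.14 and passed (limma adjusted p = 0.0443). Over its 18 alternatives the adjusted p ranged from that value up to 0.555.

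Most of the Socs2 difference lay at 1 site. The H3K27ac site at 29.9 to 33.9 kb, across the upper gene end, covered 2.52, 3.01, 0, 2.27 and 4.08 kb in DKOITD mice, against 0 kb in each WT mouse (exact permutation p = 0.143). These peaks were long, longer than at least 95.9% of the peaks of their own lists. They were not strong, with a q above 16.1% to 62.3% of the peaks in the same lists. The H3K27ac of WT mice was elsewhere, at 5.01 to 5.78 kb in WT1 and at 11.0 to 12.2 kb in WT2. H3K27me3 was present at the same gene end in all 8 mice. That site, at 29.8 to 35.1 kb, covered 2.42, 5.18, 0.796, 0.389 and 3.91 kb in DKOITD mice, against 3.65, 3.05 and 3.82 kb in WT mice (exact permutation p = 0.50). Over the whole window, H3K27me3 covered 2.42, 8.93, 0.796, 0.389 and 5.74 kb in DKOITD mice, against 5.14, 3.05 and 6.51 kb in WT mice. The 3 lowest values were those of DKOITD83, DKOITD53e and DKOITD48, the libraries with the shortest H3K27me3 territory, and the groups overlapped. The mean was 3.65 ± 3.62 kb in DKOITD mice and 4.90 ± 1.74 kb in WT mice (SD, n = 5 and 3; exact permutation p = 0.607), and the log2 difference was -0.85 ± 0.92 (SE; limma adjusted p = 0.643). It was 0.56 without the 3 mice. With equal peak numbers, the 1891 peaks strongest by q kept in each H3K27me3 library, it was -2.21 (limma adjusted p = 0.423). Every DKOITD mouse was then below every WT mouse (exact permutation p = 0.0357).

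Since H3K27ac and H3K27me3 occupy the same residue, bases under peaks of both were counted too. Peaks of each mark came from a separate library of bulk marrow, so shared bases do not show both marks in the same cell. At Socs2 the peaks of both marks shared 2.40, 2.98, 0, 0.162 and 4.39 kb in DKOITD mice, against 0 kb in each WT mouse. The overlap was present in 4 of 5 DKOITD mice and 0 of 3 WT mice, and its mean was 1.99 ± 1.88 kb in DKOITD mice and 0 kb in WT mice (SD, n = 5 and 3; exact permutation p = 0.143). Over all coding genes, both marks shared bases at 0.132% to 2.65% of genes per DKOITD mouse and 0.978% to 2.18% per WT mouse. In all, 18 genes had such bases in at least 4 of 5 DKOITD mice. Of these, 8 had none in any WT mouse, which is 0.0366% of coding genes: Sulf2, Whrn, Foxo6, Socs2, Hmga2, Trim47, Ctnnd2 and Vegfa, named after their values were seen. Socs2 had the longest mean overlap of the 8, at 1986 bp over the DKOITD mice, followed by Vegfa at 749 bp. Whatever their state in DKOITD mice, 119 genes had such bases in all 3 WT mice.

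**Figure D3:**
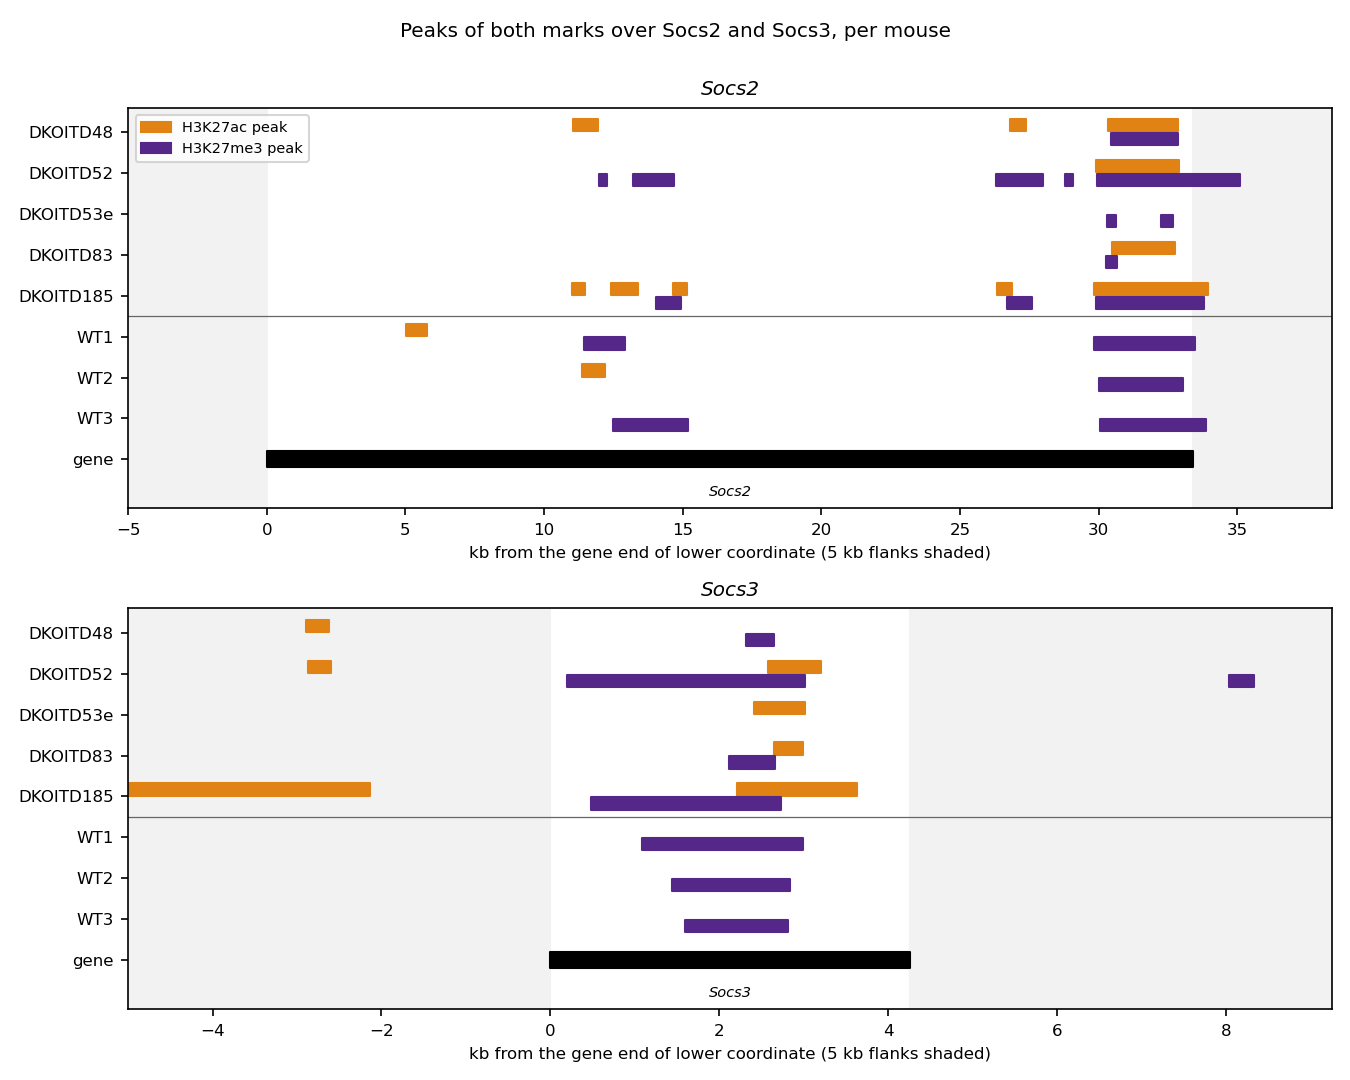
Peaks of H3K27ac (orange) and H3K27me3 (purple) over the windows of Socs2 and Socs3, 1 line per mouse with DKOITD mice above WT mice; the horizontal axis is the distance in kb from the gene end of lower coordinate and black bars are the genes. H3K27me3 lies at 29.8 to 35.1 kb of Socs2 in all 8 mice, and H3K27ac overlies it in 4 of 5 DKOITD mice and 0 of 3 WT mice.

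Socs3 (12702; chromosome 11, 117966079 to 117970336), whose product inhibits receptors of the IL-6 and G-CSF type, had 0.275, 0.899, 0.605, 0.349 and 4.30 kb of H3K27ac in DKOITD mice, against 0 kb in each of WT1, WT2 and WT3. Every DKOITD mouse was above every WT mouse, with DKOITD185 far above the rest. Of the 8 genes it was the one whose groups did not overlap for H3K27ac, where 1.79% of the genes tested lay apart in that direction and 15.5% in the other. Coverage in 5 of 5 DKOITD mice and 0 of 3 WT mice was found at 0.668% of the genes tested. The mean was 1.28 ± 1.70 kb in DKOITD mice and 0 kb in WT mice (SD, n = 5 and 3; exact permutation p = 0.0357). The log2 difference was 1.46 ± 0.55 (SE; limma adjusted p = 0.174), larger than that of 99.0% of the genes tested. It was 1.01 without DKOITD185 (limma adjusted p = 0.0645) and 1.68 after scaling to territory, where it passed (limma adjusted p = 0.0250). With 0.1 kb added in place of 0.5 kb it was 3.13 (limma adjusted p = 0.0847). Without DKOITD48, DKOITD53e and DKOITD83, Socs3 was covered in too few mice for a fit. Over its 17 alternatives the adjusted p ranged from 0.0250 to 0.479. With the gene interval alone, or with 1 kb on either side, the groups overlapped, because the single peak of DKOITD48 lies outside the gene. They also overlapped with equal peak numbers, the 8825 peaks strongest by q kept in each H3K27ac library. The log2 difference was then 1.03 (limma adjusted p = 0.342, exact permutation p = 0.357).

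The Socs3 acetylation came from a flanking site and from one inside the gene. The flanking site ran from -6.53 to -2.13 kb, past the edge of the window, and its peaks covered 0.71, 0.733, 0.460, 0.474 and 4.40 kb in DKOITD mice, against 0.329, 0 and 0.292 kb in WT mice (exact permutation p = 0.0357). WT1 and WT3 were thus acetylated there, beyond the window's edge, and every DKOITD mouse had more. It was the only one of the 34 H3K27ac sites that was higher in DKOITD mice without overlap, against 1.0% of the 32836 merged regions. The inner site at 2.21 to 3.64 kb covered 0, 0.630, 0.605, 0.349 and 1.43 kb in DKOITD mice, against 0 kb in each WT mouse (exact permutation p = 0.143). Every DKOITD H3K27ac library had more fragments than every WT one, and H3K27ac territory overlapped between the groups. At others of the 8 genes, the weakest WT H3K27ac peaks had an authors' fold enrichment of 3.19 in WT1, 3.41 in WT2 and 3.05 in WT3. Whether a peak at Socs3 went uncalled in WT mice was not tested, nor was the part of depth in the Socs3 difference. Apart from DKOITD185, the strongest peak in the Socs3 window was weak in each DKOITD mouse, with an authors' fold enrichment of 3.46 to 3.66 and a q above 18.4% to 31.9% of the peaks of its list. A second peak in DKOITD52 had a fold enrichment of 2.97.

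H3K27me3 over Socs3 was present in both groups, with 0.330, 3.14, 0, 0.543 and 2.25 kb in DKOITD mice, against 1.91, 1.40 and 1.22 kb in WT mice. DKOITD52 and DKOITD185 were above all WT mice, the 3 DKOITD mice with short H3K27me3 territory were below them, and the groups overlapped. The mean was 1.25 ± 1.37 kb in DKOITD mice and 1.51 ± 0.36 kb in WT mice (SD, n = 5 and 3; exact permutation p = 0.786), with a log2 difference of -0.57 ± 0.94 (SE; limma adjusted p = 0.742), which was 0.67 without the 3 mice. The main H3K27me3 site, at 0.192 to 3.02 kb, overlapped the inner acetylated site by 0.444 kb in DKOITD52, 0.010 kb in DKOITD83 and 0.517 kb in DKOITD185, and by 0 kb in the other mice (exact permutation p = 0.357). Socs3 was one of 2628 genes that had an H3K27me3 peak and no H3K27ac peak in the window in all 3 WT mice. Of these, 57, or 2.17%, had H3K27ac in all 5 DKOITD mice. Within the 57, Socs3 was among 16 that also had H3K27me3 in at least 4 of 5 DKOITD mice.

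Cish (12700; chromosome 9, 107296659 to 107302784), an SH2 protein of the same family that is induced by STAT5, had 0.892, 1.23, 0, 0 and 1.51 kb of H3K27ac in DKOITD mice, against 1.09, 0.488 and 0 kb in WT mice. DKOITD53e, DKOITD83 and WT3 had no peak, and the groups overlapped. The mean was 0.725 ± 0.697 kb in DKOITD mice and 0.525 ± 0.544 kb in WT mice (SD, n = 5 and 3; exact permutation p = 0.786), with a log2 difference of 0.17 ± 0.59 (SE; limma adjusted p = 0.862). Its direction turned with the window and with single mice, at -0.21 with 10 kb on either side and -0.27 without WT3. The main site, at -0.892 to 0.664 kb, was covered in DKOITD52, DKOITD185, WT1 and WT2. The single peak of DKOITD48 lay apart from it, at 2.64 to 3.53 kb, and ranked above 1.51% of the peaks of its list by q.

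Pim1 (18712; chromosome 17, 29490785 to 29496111), a serine/threonine kinase that promotes survival of blood cells, was the most acetylated of the 8 genes per length. It had 4.82, 8.84, 4.64, 5.95 and 10.3 kb of H3K27ac in DKOITD mice, against 7.33, 5.15 and 6.47 kb in WT mice. DKOITD52 and DKOITD185 were highest, the other 3 DKOITD mice lay among or below the WT mice, and the groups overlapped. The mean was 6.91 ± 2.54 kb in DKOITD mice and 6.32 ± 1.10 kb in WT mice (SD, n = 5 and 3; exact permutation p = 0.786), and the log2 difference was 0.07 ± 0.37 (SE; limma adjusted p = 0.916). Per length, peaks covered 45.1% of its window in DKOITD mice and 41.2% in WT mice, more than in 99.9% and 99.8% of all coding genes. Next to Pim1 came Socs1, at 15.1% in DKOITD mice and 13.9% in WT mice, above 97.6% and 94.0% of all coding genes. Most of the Pim1 coverage in each mouse was at 1 site, which ran from -2.81 to 5.22 kb with the peaks of all mice merged. The peak of DKOITD48 ran from -2.27 to 2.55 kb, within that span. The site covered 4.82, 7.89, 4.64, 5.95 and 7.48 kb in DKOITD mice, against 6.04, 5.15 and 5.76 kb in WT mice. In each library the longest Pim1 peak was longer than at least 99.3% of all peaks of that list. After scaling to territory, every DKOITD mouse was above every WT mouse (log2 difference 0.80, exact permutation p = 0.0357, limma adjusted p = 0.0917). The only H3K27me3 at Pim1 was a peak of 0.233 kb in DKOITD48, against 0 kb in the other 4 DKOITD mice and in the 3 WT mice (exact permutation p = 1.0). It lay within the acetylated site and ranked above 6.60% of the peaks of its list by q.

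Bcl2l1 (12048; chromosome 2, 152758732 to 152833803), which encodes the anti-apoptotic protein BCL-XL, had 1.52, 1.28, 0.477, 0.424 and 2.94 kb of H3K27ac in DKOITD mice, against 8.70, 2.05 and 2.74 kb in WT mice. WT1 was far above the others, 4 DKOITD mice were below every WT mouse, and DKOITD185 made the groups overlap. The mean was 1.33 ± 1.02 kb in DKOITD mice and 4.50 ± 3.66 kb in WT mice (SD, n = 5 and 3; exact permutation p = 0.107). The log2 difference was -1.39 ± 0.53 (SE; limma adjusted p = 0.180), or -1.03 relative to the median of all genes, and 7.35% of the genes tested had a more negative one. It stayed negative in all 19 alternatives, with an adjusted p of 0.0777 to 0.657. Without WT1 it was -0.83 (limma adjusted p = 0.589), and without DKOITD48, DKOITD53e and DKOITD83 it was -0.78.

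The Bcl2l1 gene is long, and its peaks were few. The site at 71.8 to 73.0 kb, near the upper gene end, was covered in all 8 mice, with 0.592, 0.866, 0.477, 0.424 and 0.848 kb in DKOITD mice, against 0.861, 1.13 and 0.917 kb in WT mice (exact permutation p = 0.0714). DKOITD52 was just above WT1, and the other 4 DKOITD mice were below all WT mice. The site at 28.6 to 33.2 kb, inside the gene, covered 0, 0.415, 0, 0 and 2.09 kb in DKOITD mice, against 4.58, 0.916 and 1.56 kb in WT mice (exact permutation p = 0.143). It was thus found in 2 of 5 DKOITD mice and in 3 of 3 WT mice. H3K27me3 over the window covered 0.848, 0.631, 0, 0.564 and 1.95 kb in DKOITD mice, against 0, 0.374 and 0 kb in WT mice. It was present in 4 of 5 DKOITD mice and 1 of 3 WT mice, and the groups overlapped. The mean was 0.798 ± 0.715 kb in DKOITD mice and 0.125 ± 0.216 kb in WT mice (SD, n = 5 and 3; exact permutation p = 0.143), with a log2 difference of 0.93 ± 0.69 (SE; limma adjusted p = 0.606). Apart from a peak of 0.212 kb inside the gene in DKOITD185, this H3K27me3 lay outside Bcl2l1, at -5.05 to -3.26 kb, in the flank that also reaches the neighbouring gene Cox4i2.

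With every peak counted, the groups overlapped for H3K27me3 at all 5 genes with any such peak. Over the genes tested, 5.19% lay apart, 0.104% higher and 5.09% lower in DKOITD mice. None of the 8 genes had H3K27me3 in 5 of 5 DKOITD mice and 0 of 3 WT mice, found at 0.0868% of genes, or in 0 of 5 DKOITD mice and 3 of 3 WT mice, found at 1.91%. None of their 10 H3K27me3 sites lay apart either, against 0.0193% of 41384 merged regions higher and 0.768% lower. With equal peak numbers, Socs2 lay apart and lower in DKOITD mice, where 95 of the 2272 genes tested did so.

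**Figure D4:**
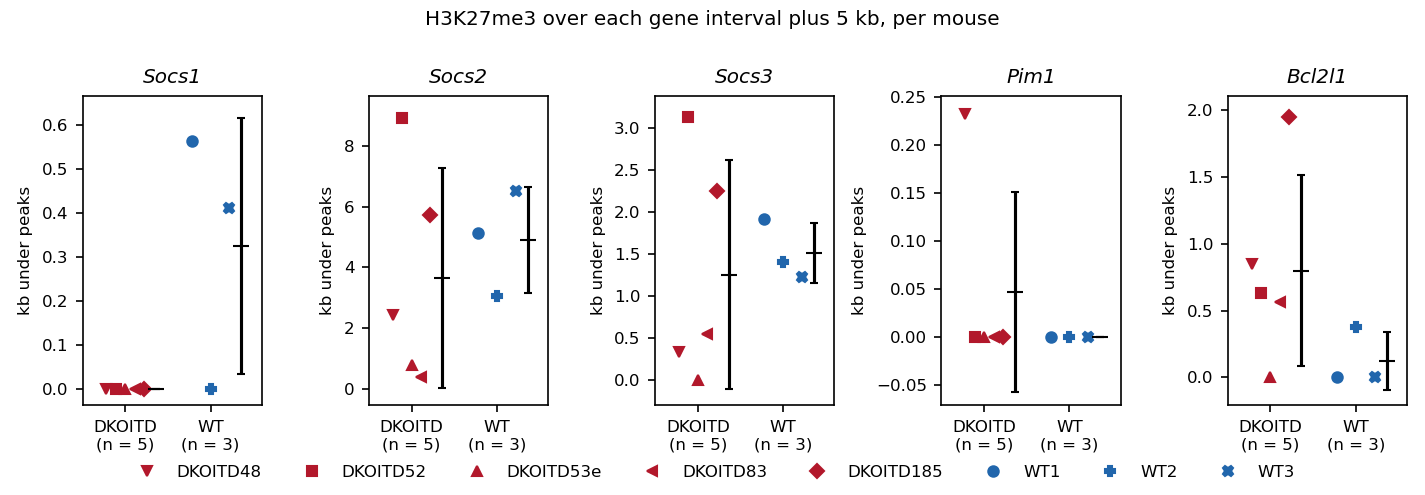
Length under H3K27me3 peaks (kb, vertical axes with their own scale for each gene) over the windows of the 5 genes with any such peak, with 1 symbol per mouse; the black tick and bar are the mean and SD of 5 DKOITD mice and of 3 WT mice. The groups overlap at all 5 genes, and at Socs2 and Socs3 the DKOITD mice spread over 0.389 to 8.93 kb and 0 to 3.14 kb, against 3.05 to 6.51 kb and 1.22 to 1.91 kb in the WT mice.

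Set side by side, the 8 genes did not move as a block. The median log2 difference of H3K27ac over them was 0.08, against -0.36 over all genes tested, and 5 of the 8 were above that median. It was 0.50 against 0.15 after scaling to territory, and 0.43 against 0.00 over the 7 genes tested without DKOITD48, DKOITD53e and DKOITD83. No H3K27ac difference of the 8 genes changed sign with the scaling, although Stat5a and Stat5b did without the 3 mice. Among all genes called, 15% were higher in DKOITD mice, and 43.9% after scaling to territory. DKOITD185 had the most H3K27ac of all 8 mice at Socs1, Socs2, Socs3, Cish and Pim1, DKOITD52 at Stat5a, and WT1 at Stat5b and Bcl2l1. The number of the 8 genes with any H3K27ac was 8, 8, 5, 6 and 8 in DKOITD mice, against 7, 7 and 5 in WT mice. For H3K27me3 it was 4, 3, 1, 3 and 3 in DKOITD mice, against 3, 3 and 3 in WT mice. By the mean percent of the window under H3K27ac, the order in DKOITD mice was Pim1, Socs1, Socs3 (9.01%), Socs2 (7.31%), Cish (4.50%), Stat5b (4.05%), Stat5a (3.51%) and Bcl2l1 (1.56%). In WT mice it was Pim1, Socs1, Stat5b (5.69%), Bcl2l1 (5.28%), Stat5a (4.23%), Cish (3.25%), Socs2 (1.25%) and Socs3 (0%). Below Socs1, neighbours in either order differed by less than the larger of their SDs between mice, except Socs2 (1.25% ± 1.09) and Socs3 in WT mice.

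**Figure D5:**
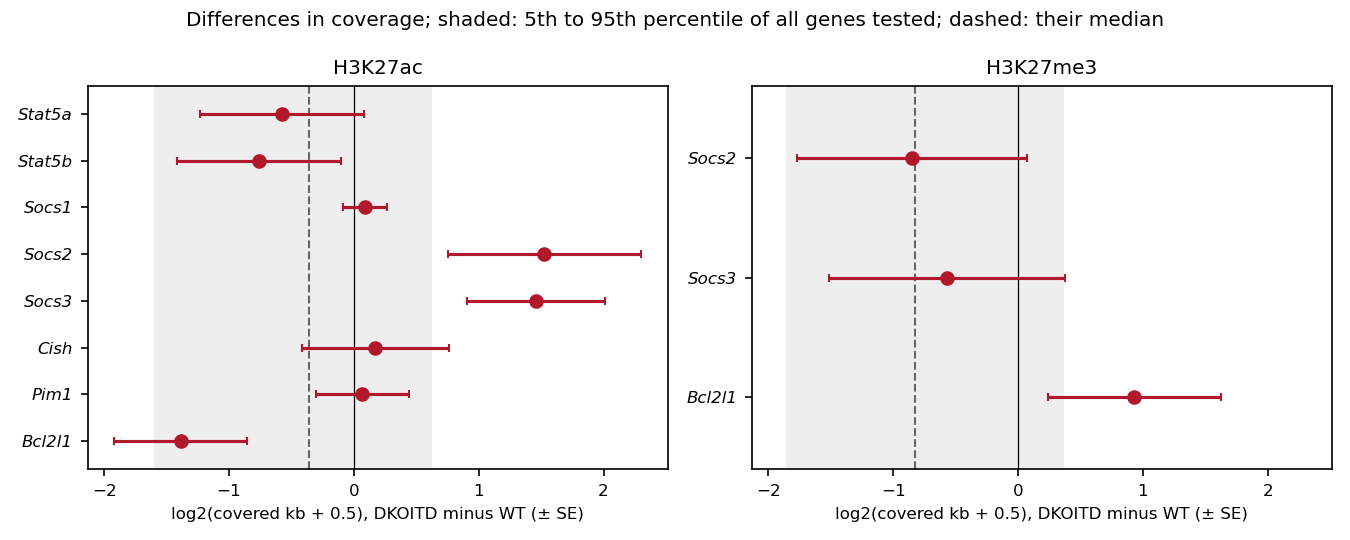
Difference in coverage, DKOITD minus WT, in log2(covered kb + 0.5) with its standard error from limma, for H3K27ac (8 genes, left) and H3K27me3 (the 3 genes tested, right); the grey band holds the 5th to 95th percentile of all genes tested and the dashed line their median, -0.36 and -0.83. Socs2 at 1.53 and Socs3 at 1.46 lie right of the band for H3K27ac, and Bcl2l1 at 0.93 right of it for H3K27me3.

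The wider pathway was described with 6 lists of 54 other genes, namely other STAT genes, JAK kinases, other SOCS genes, other negative regulators, other STAT5 response genes and partners of FLT3-ITD. For H3K27ac, 52 of the 54 were tested, 0 were higher and 1 was lower in DKOITD mice by limma's adjusted test (0.676% and 3.84% of all genes tested), and the median log2 difference was -0.31, against -0.36 over all genes. The one called was Stat4, which acts downstream of IL-12. It had 0.405, 1.87, 0, 0.285 and 0.605 kb in DKOITD mice, against 6.98, 3.82 and 2.57 kb in WT mice (log2 difference -2.23 ± 0.48, limma adjusted p = 0.0358). Groups lay apart at Stat4, at Trib1, a pseudokinase gene, and at Map2k1, which encodes the kinase MEK1, each lower in DKOITD mice. These are 3 of the 52, where 15.5% of all genes tested lay apart in that direction. Trib1 averaged 3.13 ± 1.28 kb in DKOITD mice and 6.46 ± 0.51 kb in WT mice (SD, n = 5 and 3; limma adjusted p = 0.123). Map2k1 averaged 1.35 ± 0.93 kb in DKOITD mice and 3.77 ± 1.28 kb in WT mice (SD, n = 5 and 3; limma adjusted p = 0.120). By list, the median was 0.09 for 4 JAK kinases, 0.04 for 4 other SOCS genes and 0.15 for 14 other STAT5 response genes, with none called. It was -0.78 for 5 other STAT genes, -0.36 for 12 other negative regulators and -0.37 for 13 partners of FLT3-ITD. For 10 housekeeping genes it was -0.40, with none called. For H3K27me3, 13 of the 54 were tested and 0 were called. Groups lay apart at 1 of them, Bcl2, which encodes another anti-apoptotic protein, with 0 kb in every DKOITD mouse, against 0.280, 0.262 and 0.950 kb in WT mice (limma adjusted p = 0.606). Of all genes tested for H3K27me3, 5.09% lay apart in that direction.

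Genes elsewhere in the genome with the most similar H3K27ac pattern over the 8 mice were taken as the 2 with the highest Pearson r of log2(kb + 0.5) among those tested, leaving out genes within 1 Mb. They are a description, since the 8 points share library and territory. Stat5b was nearest to Ncapd2 and Bcl10 (r = 0.996 for both), and 2325 genes had an r of at least 0.9 with it. Bcl2l1 was nearest to Arhgef4 (r = 0.987) and Mrpl17 (r = 0.985), with 1053 such genes, and Stat5a to Rrm2b (r = 0.996) and Ntan1 (r = 0.993), with 791. Socs1 was nearest to Acox3 (r = 0.944) and Vps41 (r = 0.934), with 14 genes at 0.9 or more. Socs2 was nearest to Arhgap5 (r = 0.983) and Pvr (r = 0.979), with 46. Socs3 was nearest to Ltbr (r = 0.979) and Pofut2 (r = 0.975), with 43. Cish was nearest to Apobec2 (r = 0.998) and Anxa6 (r = 0.983), with 148. Pim1 was nearest to Atp5j2 (r = 0.982) and Stk40 (r = 0.979), with 144.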

How the data were processed

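Reads were handled with Bowtie2 2.2.5 and MACS2 2.0.10 on mm10, per the submitters' processing notes. The authors ran MACS 2.0.10.20131216 in broad mode on 1 library at a time, at a q cutoff of 0.05 and with 1 fragment kept per position, per the file headers. The control was the input of DKOITD48 for all DKOITD libraries and that of WT1 for all WT libraries. Each deposited peak has a signal, the pileup of fragments, and the −log10 of its p-value and q-value, per the file headers. Its fold enrichment, the ratio of pileup to local background, is the authors' own value as well. All of these describe a peak within its own list. Drosophila chromatin was added, and per the labels' protocols its reads went unused, so the peaks carry no absolute level. Fragment totals after filtering are those of the headers.

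From the lists, the kb under merged peaks was computed for 21887 protein-coding genes of a RefSeq table of GRCm38.p6, the assembly behind mm10, over the gene interval plus 5 kb. limma 3.58.1 in R 4.3.3, with trend and robust settings, was fitted to log2(kb + 0.5) of genes covered in at least 3 of 8 mice, with Benjamini-Hochberg adjustment over all of them at 0.05. The added 0.5 kb shrinks the log2 differences of genes with short coverage. For single genes, mean kb was also tested by exact permutation, two-sided, with all 56 assignments of mice. Nothing in the labels says how the mice relate, and p-values measure the spread between them. A missing peak is not absence of the mark. All 8 genes are named with every mouse's value. Of the pathway lists, genes called by limma are named, or, where none is, those whose groups do not overlap. Cell type markers are named as examples, by their values, and not all of those called are named. No housekeeping gene is named. The other genes named by their values are marked so. The 8 genes and all lists were chosen with earlier results of these data known. Python 3.11.15 with pandas 2.3.3 and scipy 1.17.1 was used. The human cell line libraries were not analysed here, and no sequence is printed.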

Additional observations from a re-analysis of the deposited data

Results flagged for a closer look

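Among the 12 groups of 5 DKOITD values with any range, 2 held a mouse far from the other 4, by Dixon's ratio of gap to range at its 95% level of 0.71 for 5 samples. Chance flags about 5% of groups. DKOITD185 had 4.295 kb of H3K27ac over Socs3, where the next mouse, DKOITD52, had 0.899 kb, a ratio of 0.845. DKOITD185 also had the longest H3K27ac territory of the DKOITD mice, at 23.8 Mb. DKOITD48 had a peak of 0.233 kb of H3K27me3 at Pim1, where the other 4 DKOITD mice had 0 kb. With 4 values at 0 the ratio is 1.0 whatever the size of the peak, and the chance rate does not apply to it.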

How the results depend on the processing

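Of the values of single genes under other settings, 181 kept their direction and their side of the threshold, 2 came to pass it (Socs2 H3K27ac without DKOITD53e and Socs3 H3K27ac scaled to territory) and 15 turned round, none of them past the threshold. Cish H3K27ac turned to -0.21 with 10 kb on either side, and ranged from -0.27 (without WT3) to 0.56 when 1 mouse was left out. Pim1 H3K27ac turned to -0.0020 with no flank and -0.0087 with 10 kb, and ranged from -0.0847 (without DKOITD185) to 0.18. With peaks of −log10 q of at least 5 only, Socs1 H3K27ac turned to -0.49 and Stat5b to 0.0606. Without DKOITD48, DKOITD53e and DKOITD83 together, Stat5a H3K27ac turned to 0.42, Stat5b H3K27ac to 0.43, Socs2 H3K27me3 to 0.56 and Socs3 H3K27me3 to 0.67. The cause of these turns was not tested.

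Counts over all genes moved more. H3K27ac calls, 541 as reported, were 85 with the q limit, 947 after scaling to territory and 134 without the 3 mice, and 21 to 867 when 1 mouse was left out. They were 25 without WT1, 208 without WT2, 21 without WT3, 231 without DKOITD48, 334 without DKOITD83 and 867 without DKOITD185. H3K27ac genes apart and higher in DKOITD mice (215) were 130 with the q limit, 343 with equal peak numbers, 1056 scaled and 2010 without the 3 mice, and 217 to 371 leaving out 1 mouse (371 without DKOITD53e, 327 without DKOITD83, 362 without WT1). Those lower (1852) were 926 with the q limit and 991 scaled, and 1793 to 3558 (without WT2) leaving out 1 mouse. H3K27me3 calls (0) were 1 with the q limit, 39 scaled, 1 without trend and robust settings and 3 without the 3 mice, and 0 to 22 (without DKOITD185) leaving out 1 mouse. H3K27me3 genes apart and higher (6) were 21, 31, 63 and 2189 with the q limit, equal peak numbers, scaling and without the 3 mice, and 6 to 17 leaving out 1 mouse (17 without DKOITD53e, 11 without WT1). Those lower (293) were 1, 95 and 876 with the q limit, equal peak numbers and scaling, and 219 to 641 leaving out 1 mouse (604 without DKOITD52, 456 without DKOITD185, 641 without WT2).

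No paired analysis was possible because the DKOITD and WT mice share no replicate number. The planned window of 1 kb around the gene start was not run, since the gene table gives no start or strand. Genes left with coverage in fewer than 3 mice had no fit: Socs2, Socs3 and Cish H3K27ac and the H3K27me3 of Socs2, Socs3 and Bcl2l1 under the q limit, Cish H3K27ac and Bcl2l1 H3K27me3 with equal peak numbers, Bcl2l1 H3K27me3 with 1 kb or no flank, and Socs3 H3K27ac without the 3 mice. Libraries differed in depth and in territory, and the part of either in a missing peak was not tested.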
